A study of Macaca fascicularis and Macaca mulatta and Papio anubis with 20 samples.

Results

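TRPM8-positive spots were examined in Visium spatial transcriptomes of dorsal root ganglia from Macaca fascicularis, the cynomolgus macaque. A spot was called TRPM8-positive when it held at least 2 TRPM8 unique molecular identifiers (UMIs, each standing for 1 captured transcript), and TRPM8-free when it held 0. Both classes were taken from spots under tissue with at least 2000 UMIs. The rule found 52 TRPM8-positive and 7521 TRPM8-free spots among 7814 eligible spots, and 241 eligible spots with exactly 1 TRPM8 UMI belonged to neither class. The eligible spots came from 21897 tissue spots of this species and 32952 tissue spots in all sections with a matrix. The spots were thus chosen by their own TRPM8 counts, so every TRPM8 value below is a description and was not tested.

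The ganglia were fresh frozen, cut at 10 µm with sections 100 µm apart, permeabilised for 12 min and counterstained with haematoxylin and eosin. No treatment or genotype is labelled. The M. fascicularis sections fell under 4 title codes with 4 sections each, named here by their labelled sex and batch as female batch 1, male batch 1, female batch 2 and male batch 2. The labels do not say how many animals or ganglia a title code stands for, so title codes served as the replicates. The p-values of the class comparisons rest on how the difference between classes varies from title code to title code. Each spot covers an area in which several cells, or a piece of 1 cell, may lie, so spots are not called neurons of any type. Fewer cells of a type and less RNA per cell cannot be told apart in such spots.

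TRPM8 is the cation channel that opens on cooling and on menthol, and in the ganglion it marks a small class of thin-fibre sensory neurons that carry cold. Its gating needs the membrane lipid PIP2, which phospholipase C enzymes cleave. Large myelinated touch and muscle-sense neurons, by contrast, are rich in the heavy neurofilament NEFH, in parvalbumin (PVALB) and in osteopontin (SPP1), while thin peptidergic neurons carry substance P (TAC1), CGRP (CALCA, CALCB) and the heat and capsaicin channel TRPV1.

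The positive spots were rare, and they were unevenly spread over the sections. Female batch 1 held 15 of 1925 eligible spots (0.779%, 95% exact binomial interval 0.437 to 1.28%), male batch 1 held 22 of 2525 (0.871%, 0.547 to 1.32%) and female batch 2 held 15 of 2321 (0.646%, 0.362 to 1.06%). Male batch 2 held 0 of 1043, which allows a share of up to 0.288%, so 3 title codes entered the comparisons. The 3 intervals overlap one another, and that of male batch 2 (upper bound 0.353%) lies below those of the other 3. Male batch 2 was also shallower, with a median of 3388 UMIs in its free spots against 5094.5 to 5973. At a minimum of 4000 UMIs it had 0 of 377 positive spots, with an upper bound of 0.974% that overlaps the other 3 intervals. With spots thinned to 2000 UMIs, 0.863% of its spots kept a TRPM8 UMI (0.395 to 1.63%). The share was 1.97% in female batch 1 (1.40 to 2.70%), 1.58% in male batch 1 (1.13 to 2.15%) and 1.16% in female batch 2 (0.768 to 1.69%). Male batch 2 thus stayed lowest, with an interval that overlaps the other 3. These intervals cover counting error only.

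Positive spots were unequally divided among sections of a title code. In male batch 1 the 4 sections held 2, 1, 4 and 15 positive spots, in female batch 1 they held 0, 2, 9 and 4, and in female batch 2 they held 4, 2, 2 and 7. The TRPM8 level over all eligible spots of a section, in counts per 1000000 UMIs (CPM), was 3.09, 4.10, 10.9 and 8.20 in sections 1 to 4 of female batch 1. It was 4.86, 3.15, 11.6 and 11.5 in male batch 1. Sections 3 and 4 were thus higher than sections 1 and 2 in both of these title codes. In female batch 2 it was 3.90, 3.12, 4.63 and 10.1, so that only section 4 stood above the rest. In male batch 2 it was 3.66, 3.93 and 6.47 in sections 1, 2 and 4, while section 3 has no matrix among the files used here. TRPM8 was therefore detected in male batch 2, but never with 2 UMIs in an eligible spot.

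**Figure D1:**
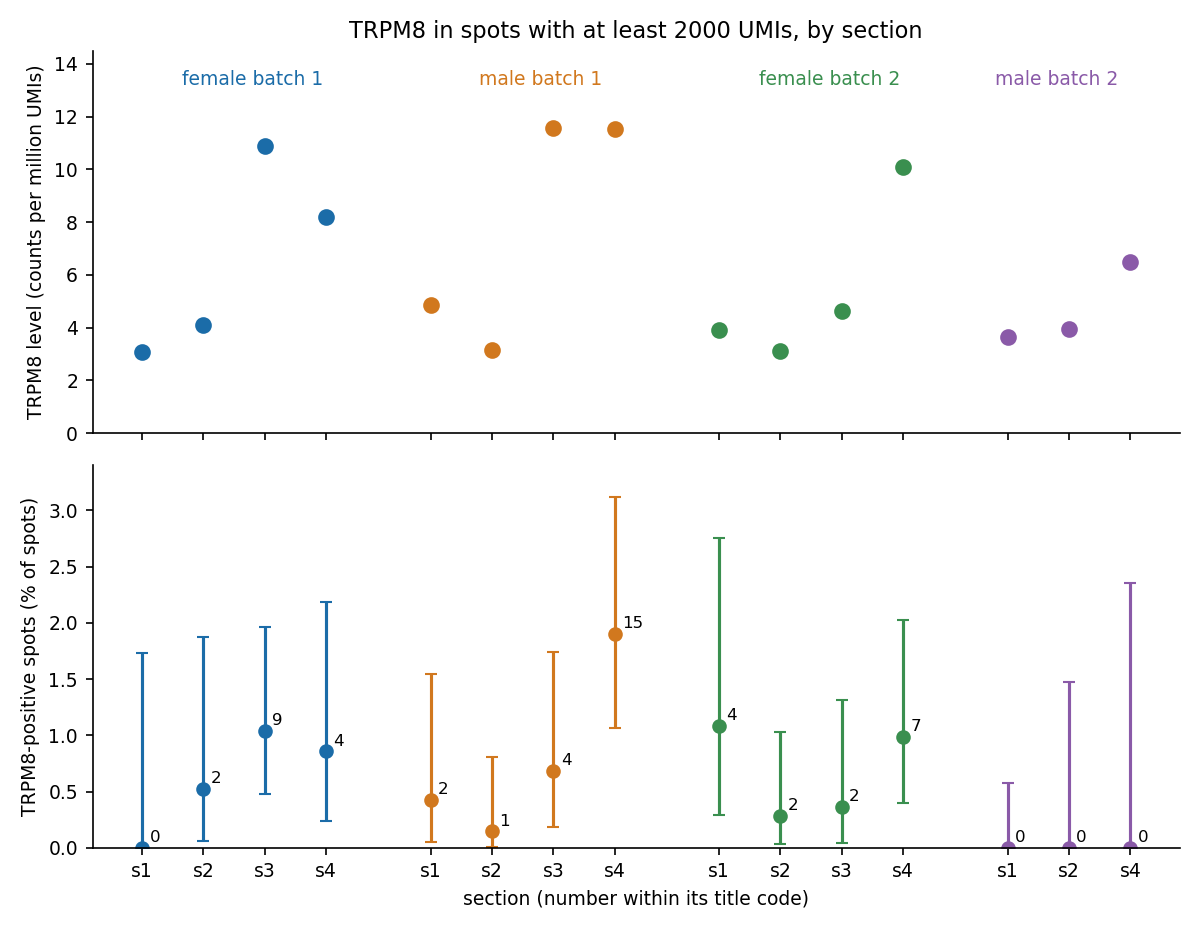
TRPM8 level in CPM (top) and share of TRPM8-positive spots with its 95% exact binomial interval (bottom) in each M. fascicularis section with a matrix; the numbers beside the points count positive spots. Sections 3 and 4 of both batch 1 title codes and section 4 of female batch 2 lie at or above 8.20 CPM, and section 4 of male batch 1 holds 15 of the 52 positive spots.

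Of the 52 positive spots, 39 had 2 TRPM8 UMIs, 11 had 3 and 2 had 4. Just inside and just outside the rule therefore lie 39 spots with 2 UMIs and 241 spots with 1. The positive spots held between 3668 and 30745 UMIs (median 10201.5) and between 1958 and 5608 genes (median 3531). The pan-neuronal list has 12 measured genes, such as SNAP25, STMN2 and TUBB3, taken here as common to neurons, though their levels need not be equal in all neurons. It took from 1.32 to 2.86% of a positive spot's UMIs (median 1.95%), so no positive spot lacked neuronal RNA.

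The TRPM8 level was not highest in the eligible spots richest in neuronal RNA. Ranked within sections by pan-neuronal share and cut into 4 equal groups, spots had TRPM8 levels of 6.55, 8.67, 6.55 and 6.12 CPM from the lowest to the highest share. With every spot thinned to 2000 UMIs, 1.17, 2.15, 1.18 and 1.33% of spots kept a TRPM8 UMI, against 2.29, 4.15, 4.16 and 4.40% before thinning. Tissue spots under 2000 UMIs, where the pan-neuronal list took 1.18% of UMIs, held 40 TRPM8 UMIs, or 4.46 CPM. A single TRPM8 UMI is thus spread over spots of all neuronal contents.

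Positive spots were deeper than free spots. The median UMI count was 10906 against 5973 in female batch 1, 10201.5 against 5094.5 in male batch 1 and 10023 against 5707 in female batch 2. The mean log2 difference was 0.89 ± 0.10 (SD, n = 3 title codes), a 1.86-fold difference, higher in all 3 title codes; the exact two-sided sign-flip permutation test gave p = 0.25, the smallest that 3 title codes allow. A spot with more UMIs has more chances to hold 2 of TRPM8, and after thinning to 2000 UMIs only 7 of 7814 spots (0.0896%) still had 2. The main comparison therefore set each positive spot against 5 TRPM8-free spots of its own section, the nearest in UMI count and in pan-neuronal share (260 spots in all). Matched medians were 10663, 10240.5 and 9567 UMIs in the 3 title codes in the same order. The median number of genes still differed, at 3809, 3574.5 and 3400 in positive spots against 3560, 3430 and 3244 in matched spots.

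**Figure D2:**
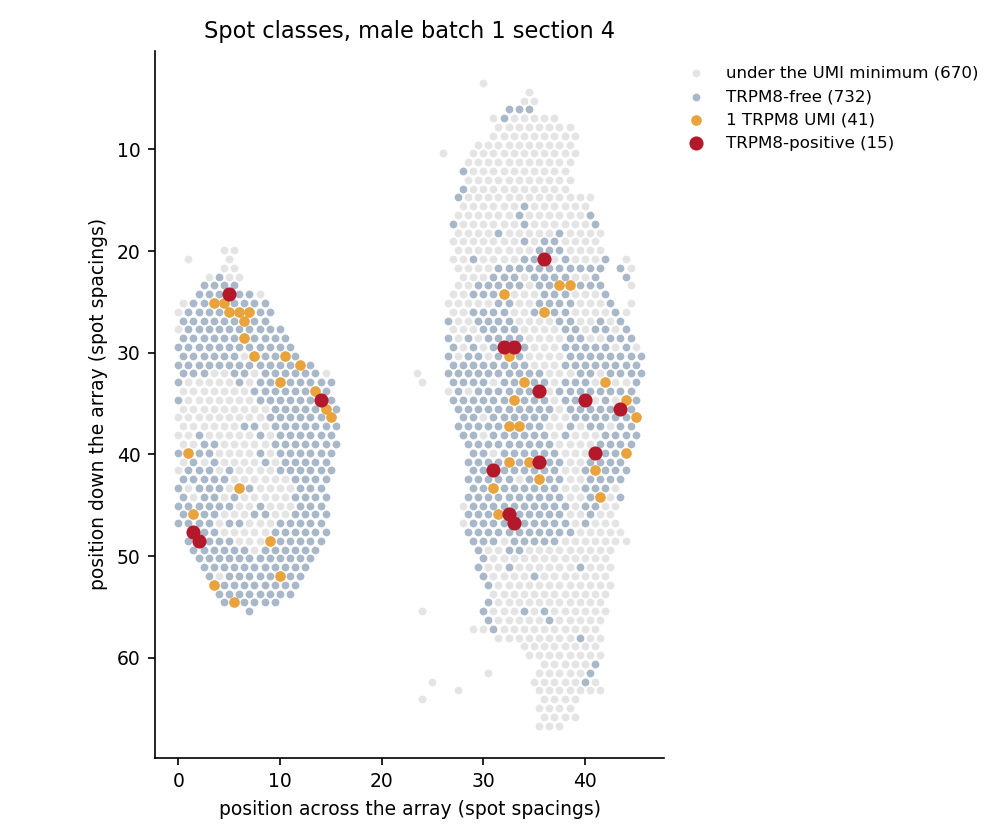
Spots of section 4 of male batch 1 at their array positions, in units of spot spacing, coloured by class: 15 TRPM8-positive spots, 41 with 1 TRPM8 UMI, 732 TRPM8-free spots and 670 tissue spots under 2000 UMIs. Positive spots lie in both visible pieces of tissue, some of them side by side.

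TRPM8 UMIs next to positive spots were counted too. Of 255 pairs of a positive spot and an eligible neighbour, the neighbour held a TRPM8 UMI in 23 (9.02%), against 82 of 1258 pairs for matched free spots (6.52%). By title code the values were 7.50% against 8.93% in female batch 1, 12.9% against 6.64% in male batch 1 and 2 of 59 (3.39%) against 11 of 324 in female batch 2. The share was higher beside positive spots in male batch 1 alone. These are pairs of a spot and its neighbour, so a spot can be counted more than once, and no interval is given. In the authors' deposited table of spatial autocorrelation, Moran's I of TRPM8 ran from -0.00519 to 0.0363 over the 16 M. fascicularis sections. The adjusted p in the authors' deposited table was under 0.05 in 3 of the sections, namely sections 2, 3 and 4 of male batch 1.

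Which genes accompanied TRPM8 was asked first with the matched spots. Against free spots matched on UMI count and pan-neuronal share, positive spots carried more of the opioid peptide precursor PENK, the ectonucleotidase ENTPD3, the acetylcholinesterase anchor COLQ, the ciliary transport protein IFT57 and the calcium sensor HPCAL1. They carried less NEFH, NEFL, SPP1 and PVALB. Counts were summed by title code and class and tested with edgeR's quasi-likelihood test, title code as a block, over 6343 genes without TRPM8 and the pan-neuronal list. Of these, 63 genes passed a Benjamini-Hochberg adjusted p of 0.05 (0.993% of the genes tested), 35 higher (0.552%) and 28 lower (0.441%). Leaving out male batch 1, the title code with most positive spots, left 3 calls (PENK, NEFH and PVALB), while 43 of the 63 remained without female batch 1 and 40 without female batch 2. A fit without the title code as a block called 0 genes, with 250 at an unadjusted p under 0.05, and DESeq2 called 21.

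PENK, the precursor of the enkephalins, differed most. It stood at 216, 20.9 and 99.4 CPM in the positive spots of female batch 1, male batch 1 and female batch 2, and at 4.70, 3.39 and 5.69 CPM in their matched spots. Every positive value lay above every matched value, though male batch 1 was far lower than the other two. The fitted difference was 4.38 on the log2 scale (SE 0.42, edgeR adjusted p = 2.97e-06). PENK reached the minimum level for testing only in the positive spots, the class where it is high. The level rests on few spots: 19 of 52 positive spots held a PENK UMI against 13 of 260 matched spots, and 1 spot of female batch 1 held 23 of the 60 UMIs. Over all spots pooled, the ratio was 22.7-fold, and 14.6-fold without that spot. No matched spot held more than 1 PENK UMI.

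ENTPD3, which breaks down extracellular ATP, was higher in a more even way. It measured 170, 246 and 243 CPM in positive spots of female batch 1, male batch 1 and female batch 2, against 47.0, 77.9 and 64.9 CPM in matched spots, with no overlap. On the log2 scale it was higher by 1.75 (SE 0.17, edgeR adjusted p = 2.97e-06). At least 1 ENTPD3 UMI was found in 42 of 52 positive spots (80.8%) and 123 of 260 matched spots (47.3%). At 2000 UMIs a spot, 23 positive and 31 matched spots kept one.

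COLQ encodes the collagen tail that anchors acetylcholinesterase. Its level was 105, 138 and 49.7 CPM in positive spots and 20.0, 13.6 and 13.7 CPM in matched spots, in the same order of title codes, so that the lowest positive value exceeded the highest matched one. The difference was 2.65 on the log2 scale (SE 0.32, edgeR adjusted p = 4.04e-05). COLQ, too, passed the minimum level for testing only through the positive spots. A COLQ UMI was present in 26 of 52 positive and 37 of 260 matched spots.

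IFT57, a part of the intraflagellar transport machinery of cilia, measured 187, 213 and 88.3 CPM against 57.6, 50.8 and 13.7 CPM. IFT57 reached the minimum level for testing in every title code only in the positive spots, the class where it is high. HPCAL1, a neuronal calcium sensor, measured 433, 313 and 282 CPM against 103, 147 and 132 CPM. Neither gene overlapped between classes, and the log2 fold changes were 1.99 (SE 0.22, edgeR adjusted p = 1.25e-05) for IFT57 and 1.37 (SE 0.17, edgeR adjusted p = 7.13e-05) for HPCAL1. Between levels of the 3 title codes, 677 of the 6343 genes tested (10.7%) did not overlap, so separation by itself was common.

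Further genes were higher in positive spots. SCG2, a granin of dense-core vesicles, was higher by 1.05 on the log2 scale (SE 0.14), and CTNNBL1, a splicing-associated protein, by 1.31 (SE 0.18). CLU, a secreted chaperone, was higher by 0.56 (SE 0.08), the plasma membrane calcium pump ATP2B4 by 0.93 (SE 0.15) and the neuronal protease inhibitor SERPINI1 by 1.08 (SE 0.18). Each was higher in all 3 title codes. KCNC2, a Kv3 potassium channel subunit, stood at 64.3, 75.2 and 22.1 CPM against 8.23, 16.1 and 6.83 CPM in matched spots. Its log2 fold change was 2.30 (SE 0.39), and it also passed the minimum level for testing only through the positive spots. NRSN1, a neuronal vesicle protein, stood at 87.7, 175 and 99.4 CPM against 50.6, 50.8 and 27.3 CPM. Among the calls outside the naming rule, chosen here after their values were seen, were the sodium channel subunit SCN2B (log2 fold change 1.36) and the adhesion molecule KIRREL3 (1.42).

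**Figure D3:**
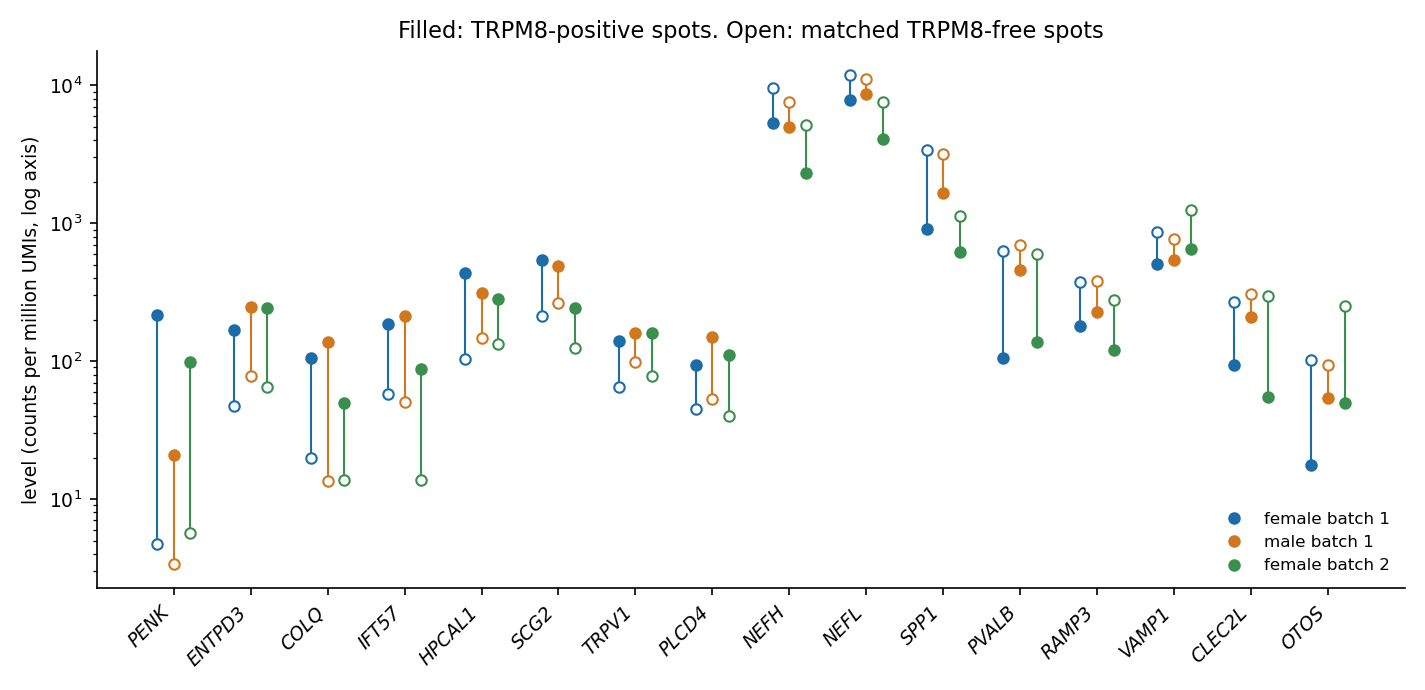
Levels of 16 genes in CPM (log axis) in TRPM8-positive spots (filled) and matched TRPM8-free spots (open) of 3 title codes, joined by lines. The 8 genes on the left are higher and the 8 on the right lower in positive spots in each title code, and PENK spans the widest gap, 216 against 4.70 CPM in female batch 1.

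NEFH, SPP1 and PVALB, which mark large myelinated neurons, were lower. Of 11 large-fibre list genes, 4 were tested and 3 passed as lower, none as higher, with a median log2 fold change of -1.08 against -0.01 over all tested genes. NEFH measured 5320, 5001 and 2296 CPM in positive spots of female batch 1, male batch 1 and female batch 2, and 9499, 7579 and 5190 CPM in matched spots. Its log2 fold change was -0.89 (SE 0.09, edgeR adjusted p = 6.54e-06), and the 2 ranges overlap because female batch 2 was lower in both classes. SPP1 measured 900, 1650 and 618 CPM against 3370, 3163 and 1133 CPM, a log2 fold change of -1.26 (SE 0.14). Its ranges overlapped between title codes while each title code was lower. PVALB, a calcium buffer of muscle-sense neurons, measured 105, 460 and 138 CPM against 627, 701 and 598 CPM, with no overlap and a value of -1.46 on the log2 scale (SE 0.22, edgeR adjusted p = 0.00056). The drop was smallest in male batch 1. The tested gene that did not pass, the touch channel PIEZO2, had a log2 fold change of -0.75 (edgeR adjusted p = 0.478).

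Neurofilaments did not move as a block. NEFL, the light subunit, was lower with a log2 fold change of -0.64 (SE 0.09). PRPH, the peripherin of thin fibres, had a log2 fold change of 0.18 (edgeR adjusted p = 0.485) and INA, alpha-internexin, of 0.44 (edgeR adjusted p = 0.123), so that 2 of 4 tested list genes passed, both lower. The summed neurofilament list took 1.70, 1.71 and 1.14% of UMIs in positive spots against 2.44, 2.18 and 1.71% in matched spots of female batch 1, male batch 1 and female batch 2. When spots were matched on the neurofilament list in place of the pan-neuronal one, the NEFL value was 0.025, the NEFH value was -0.11 and both calls were lost. Both genes are members of that list, so this matching evens them out by design and cannot test them. SPP1 (-0.55) and PVALB (-0.55) still passed in that setting.

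Further genes were lower. VAMP1, a vesicle fusion protein, fell by 0.76 on the log2 scale (SE 0.11), and RAMP3, a partner of the calcitonin-family receptors, fell by 0.99 (SE 0.15). OTOS, otospiralin, fell by 1.78 (SE 0.28), TLCD3B by 1.27 (SE 0.20), the homeodomain-only protein HOPX by 1.52 (SE 0.26) and the lectin CLEC2L by 1.26 (SE 0.22). ALDH1A1, a retinaldehyde dehydrogenase, measured 11.7 and 71.0 CPM in positive spots of female batch 1 and male batch 1 against 94.1 and 92.4 CPM. In female batch 2 it had 0 of 181159 UMIs against 207 CPM, at least 12.5-fold lower when 3 counts are allowed for the 0 in that title code. Its call was lost without male batch 1 and without female batch 2. ALDH1A1 reached the minimum level for testing in every title code only in the matched spots, the class where it is high. Calretinin (CALB2, log2 fold change -1.60) and neuregulin 1 (NRG1, -0.91) also passed, and are named here after their values were seen.

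Among peptidergic genes, 2 of 8 tested passed, both higher, with a median log2 fold change of 0.36. They were PENK and TRPV1. TRPV1 measured 140, 159 and 160 CPM in positive spots of female batch 1, male batch 1 and female batch 2 against 64.7, 99.1 and 77.4 CPM in matched spots, without overlap. It was higher by 0.88 on the log2 scale (SE 0.18, edgeR adjusted p = 0.0159). The call was lost when any 1 of the 3 title codes was left out, and with positive spots of at least 3 TRPM8 UMIs the value was -0.14. TRPV1 was found in 31 of 52 positive and 108 of 260 matched spots. TAC1 (log2 fold change 0.40, edgeR adjusted p = 0.0821), CALCA (0.09, edgeR adjusted p = 0.863) and CALCB (0.18, edgeR adjusted p = 0.679) did not pass.

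Known markers of cold neurons were mostly too scarce to test. Of 7 listed, 3 were tested and 0 passed, among them TAC1 as above and the artemin receptor GFRA3 (log2 fold change 0.47, edgeR adjusted p = 0.611). Of these 3, 2 had an unadjusted p under 0.05. The developmental factor FOXP2 had 0 UMIs in positive and matched spots, which allows up to 5.07 CPM over the 591574 UMIs of the positive spots. PIRT, a membrane protein that modulates TRPM8, had 2 UMIs in positive spots and 0 in matched spots. CDH8 had 1 and 4, and KCNK9 had 0 in both. No difference in these 4 genes was detectable at this depth.

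In the list of TRPM8 signalling partners, 1 of 8 tested genes passed. It was PLCD4, a phospholipase C, at 93.5, 150 and 110 CPM in positive spots of female batch 1, male batch 1 and female batch 2 against 44.7, 53.4 and 39.9 CPM. The classes did not overlap, and the log2 fold change was 1.34 (SE 0.23, edgeR adjusted p = 0.00207). The call was lost without male batch 1. The kinases that make PIP2 precursors had log2 fold changes of -0.10 (PI4KA) and 0.10 (PI4KB), and PLCB3 had -0.27, none past the threshold. The artemin co-receptor RET had 0.01 (edgeR adjusted p = 0.992). Of 5 tested TRP channels 1 passed, TRPV1; TRPM2 had a log2 fold change of 0.60 (edgeR adjusted p = 0.665) and TRPV2 of 0.31 (edgeR adjusted p = 0.723).

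The potassium and sodium channel list of cold excitability had 3 genes tested and 0 passed. SCN11A had a log2 fold change of -0.35 (edgeR adjusted p = 0.492) and SCN9A of 0.32 (edgeR adjusted p = 0.832). The unadjusted p was under 0.05 for 2 of the 3 genes. The non-peptidergic and itch list had 0 of 3 passing, with SST at a log2 fold change of -0.06 (edgeR adjusted p = 0.963). Among C-fibre touch genes only GFRA2 was tested (-0.10, edgeR adjusted p = 0.937), and of the sensory transcription factors 0 of 3 passed, TLX3 having 0.33 (edgeR adjusted p = 0.627).

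Markers of the other cells of the ganglion did not pass in the matched comparison. None of 5 Schwann, 7 satellite glia, 7 fibroblast, 2 endothelial, 2 smooth muscle, 9 immune, 1 adipocyte and 3 immediate early genes tested was called by edgeR. At an unadjusted p under 0.05 there were 1 satellite glia and 2 fibroblast genes, and 0 in the other 6 lists. The summed satellite glia list took 0.544, 0.406 and 0.495% of UMIs in positive spots of female batch 1, male batch 1 and female batch 2 against 0.502, 0.443 and 0.495% in matched spots. The fibroblast list took 0.346, 0.256 and 0.147% against 0.457, 0.328 and 0.144%. The Schwann list took 0.398, 0.282 and 0.168% against 0.383, 0.276 and 0.158%.

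Against all TRPM8-free spots of the 3 title codes (6496), PENK (log2 fold change 4.06) and ENTPD3 (1.92) were again higher, and 5 of 8 fibroblast and 3 of 5 smooth muscle genes tested were lower, against 0 of 5 endothelial genes. This comparison and the matched one share their positive spots and part of their free spots. The edgeR test called 121 of 10918 genes (1.11%), 42 higher (0.385%) and 79 lower (0.724%). Without TMM scaling the 121 calls split into 62 higher and 59 lower, the median log2 fold change over all genes being -0.10 with TMM and -0.02 without. The retinoid transporter ABCA4, which was too scarce for the matched test, measured 17.5, 37.6 and 88.3 CPM in positive spots of female batch 1, male batch 1 and female batch 2 against 3.42, 2.99 and 4.16 CPM in all free spots. It was higher by 3.66 on the log2 scale (SE 0.48, edgeR adjusted p = 5.77e-11), and 15 of 52 positive spots held a UMI of it. The axon growth protein GAP43 was higher by 0.56 (edgeR adjusted p = 0.0121), and the calcium sensor VSNL1 had a log2 fold change of -1.11 (SE 0.16), both members of the pan-neuronal list. The GAP43 call was lost without female batch 1 (edgeR adjusted p = 0.489) and without male batch 1 (edgeR adjusted p = 0.118).

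Of 8 tested fibroblast genes 5 were lower (median log2 fold change -0.74), among them the matrix proteins MGP (-2.51) and DCN (-0.81), COL1A1 (-1.43), APOD (-0.58) and the growth factor binding protein IGFBP6 (-0.94). Of 5 smooth muscle genes 3 were lower, ACTA2, MYL9 and TAGLN (median -1.31). ACTA2 had 0 UMIs in positive spots of female batch 1, at least 3.38-fold lower when 3 counts are allowed. It also had 0 in female batch 2, where 3 counts are 16.6 CPM, above the 9.34 CPM of free spots. COL1A1 had 0 against 6 UMIs in female batch 2, so neither gene can be compared in that title code. Of 9 Schwann genes 2 were lower, among them the myelin protein PRX (-0.81), and the Wnt antagonist SFRP4 (-2.08), the prostaglandin synthase PTGDS (-1.45) and the immediate early gene FOS (-1.14) were also lower. Without female batch 1 the calls of DCN, COL1A1, APOD, ACTA2, TAGLN, PRX and FOS were lost (edgeR adjusted p from 0.179 for ACTA2 to 0.684 for TAGLN). Without male batch 1 those of MGP, DCN, COL1A1, MYL9, TAGLN and PRX were lost (from 0.0509 for DCN to 0.506 for PRX), so of the fibroblast and smooth muscle calls only that of IGFBP6 held both without female batch 1 and without male batch 1. The pan-neuronal share was higher in positive spots by a mean of 0.0435 ± 0.0056 percentage points (SD, n = 3 title codes, exact two-sided sign-flip permutation p = 0.25, the smallest possible), higher in 3 of 3, and depth was 1.86-fold higher. Among spots with at least 4000 UMIs the share difference was -0.0146 points, higher in 0 of 3. In the matched comparison COL1A1 (-1.11), APOD (-0.32), DCN (-0.28) and FOS (0.09) did not pass, and MGP and ACTA2 were too scarce to test.

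Detection of the genes higher in positive spots was also counted spot by spot. Of PENK, ENTPD3, COLQ, IFT57 and HPCAL1, the 5 genes of highest rank in the higher direction, at least 4 had a UMI in 27 of 52 positive spots (51.9%) and in 8 of 260 matched spots (3.08%). These genes were chosen after their values were seen, so the count is a description. Singly, PENK was found in 19, ENTPD3 in 42, COLQ in 26, IFT57 in 38 and HPCAL1 in 44 of the 52 positive spots. Such rates raise the joint count without any link between the genes, and the count expected from independent detection was not computed. Among the 19 positive spots with PENK, 18 held ENTPD3, 17 IFT57, 15 HPCAL1 and 13 COLQ. All 26 positive spots with COLQ held IFT57, and 25 of them held ENTPD3 and 24 HPCAL1. The positive spots also held genes of other neurons: PVALB was found in 34 of 52, SST in 22 and MRGPRX1 in 6. SCN10A was found in 4, and TAC1, listed above among cold-neuron markers, in 51. SPP1 was present in all 52. Of the 260 matched spots, 201 held PVALB together with SPP1, 75 SST with SPP1 and 36 MRGPRX1 with SPP1. SCN10A with SPP1 was found in 15 of them and TAC1 with SPP1 in 239.

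**Figure D4:**
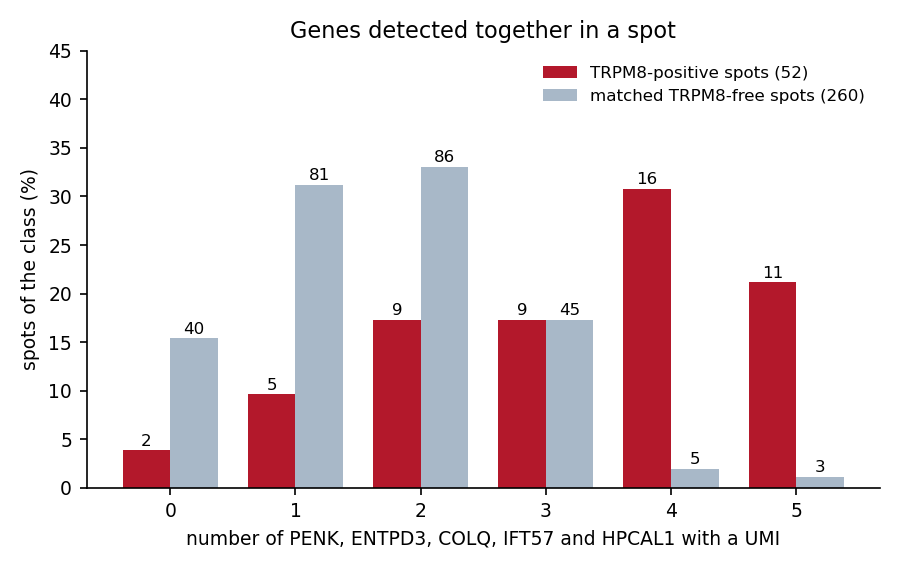
Share of spots (percent) by the number of PENK, ENTPD3, COLQ, IFT57 and HPCAL1 with at least 1 UMI, in 52 TRPM8-positive and 260 matched TRPM8-free spots; numbers above the bars count spots. The positive spots gather at 4 and 5 genes (27 spots), the matched spots at 1 gene (81 spots) and 2 genes (86 spots).

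The levels of some genes stepped with the TRPM8 count of a spot. Over spots with 0, 1, 2 and at least 3 TRPM8 UMIs in sections with positive spots, ENTPD3 measured 55.9, 101, 178 and 367 CPM and COLQ 11.8, 34.5, 88.9 and 141 CPM. NEFH measured 6522, 5237, 4412 and 3799 CPM and SPP1 2060, 1585, 1239 and 733 CPM. These 4 genes, chosen after their values were seen, step up or down at each TRPM8 count, without a test. Unlike the main comparison, spots were here pooled over title codes and not matched on depth, section or pan-neuronal share. PENK (5.99, 35.0, 102 and 98.7 CPM) and TRPV1 (89.1, 119, 171 and 98.7 CPM) were not higher at 3 or more UMIs, where only 13 spots remain. SCG2 (467 and 317 CPM at 2 and at least 3 UMIs), ATP2B4 (351 and 282), CTNNBL1 (238 and 211), RAMP3 (176 and 197) and HOPX (40.0 and 42.3) also turned there.

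Spots with exactly 1 TRPM8 UMI lie outside the rule and include male batch 2, so they give a reading in other spots of the same sections. They were compared with their own matched free spots (241 against 1205 spots, 4 title codes), and some free spots may serve in both comparisons. The edgeR test called 171 of 7412 genes (2.31%), 76 higher (1.03%) and 95 lower (1.28%). ENTPD3 measured 92.5, 99.9, 114 and 188 CPM in female batch 1, male batch 1, female batch 2 and male batch 2, against 50.8, 59.4, 67.7 and 68.8 CPM in matched spots, without overlap. Its log2 fold change was 0.80 (SE 0.13, edgeR adjusted p = 1.19e-07). HPCAL1 (0.60, SE 0.09) and IFT57 (0.96, SE 0.14) were higher in all 4 title codes. SPP1 (-0.75, SE 0.06) and PVALB (-0.87, SE 0.07) passed as lower but were lower in only 3 of 4 title codes: in male batch 2, with 18 spots, PVALB measured 348 CPM against 275 CPM.

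In these 1-UMI spots 6 of 7 tested peptidergic genes were higher. Among them TAC1 had a log2 fold change of 0.42 (SE 0.05), CALCA of 0.45 (SE 0.06) and CALCB of 0.39 (SE 0.05), each higher in 3 of 4 title codes, and KIT, the stem cell factor receptor, had 1.78 (SE 0.16). KIT measured 86.4, 94.0, 91.0 and 29.0 CPM in female batch 1, male batch 1, female batch 2 and male batch 2 against 29.5, 30.1, 11.3 and 11.5 CPM. TRPV1 was higher by 0.46 (edgeR adjusted p = 0.00644), in all 4 title codes. PENK was too scarce for the test and measured 36.5, 14.1, 70.0 and 0 CPM against 3.44, 3.82, 10.8 and 0 CPM, so it was listed at 0 in both classes of male batch 2. CTNNBL1 had a log2 fold change of -0.086 there (edgeR adjusted p = 0.897), against 1.31 in the positive spots. The test between positive spots and 1-UMI spots themselves was not run.

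The section numbered 2 under the label P. anubis, the olive baboon, was far richer in TRPM8, with 98 positive spots, 178 with 1 UMI and 942 free ones among those with at least 2000 UMIs. The submitted species labels and the gene identifiers are crossed in these extra sections (those labelled P. anubis carry macaque identifiers), so the species is given only as labelled. There is 1 such section and so no test. The 490 matched free spots stayed shallower than the positive ones, with a median of 11467.5 UMIs against 12725.5. PENK measured 170 CPM in positive spots against 12.8 CPM in matched spots, ENTPD3 152 against 46.7, IFT57 105 against 41.6 and HPCAL1 248 against 107. SPP1 measured 814 against 1980 CPM, NEFH 4346 against 7413 and PVALB 385 against 553. All 7 values lay on the side seen in M. fascicularis.

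Of the 35 genes called higher in M. fascicularis, 28 had UMIs in both classes there, and 26 of these were higher, with TIMP2 and NPTXR (2 and 1 UMIs) the other way. Of the 28 called lower, 24 had UMIs in both classes and all 24 were lower. Over all tested genes, 60.8% of those higher and 54.8% of those lower in M. fascicularis went the same way in that section. Past 1.5-fold were 16 of the 30 higher genes with a matching symbol (53.3%) and 17 of the 25 lower ones (68.0%), against 7.76% and 7.62% of all tested genes with the corresponding direction. TRPV1 had 0 UMIs in the positive spots there and CLEC2L likewise, and COLQ had no matching symbol. Neighbours of positive spots held a TRPM8 UMI in 45.8% of cases in that section, against 21.6% for neighbours of matched spots, again over pairs of a spot and its neighbour. The other section under that label and both sections labelled M. mulatta had at most 4 eligible spots each and 0 positive ones.

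**Figure D5:**
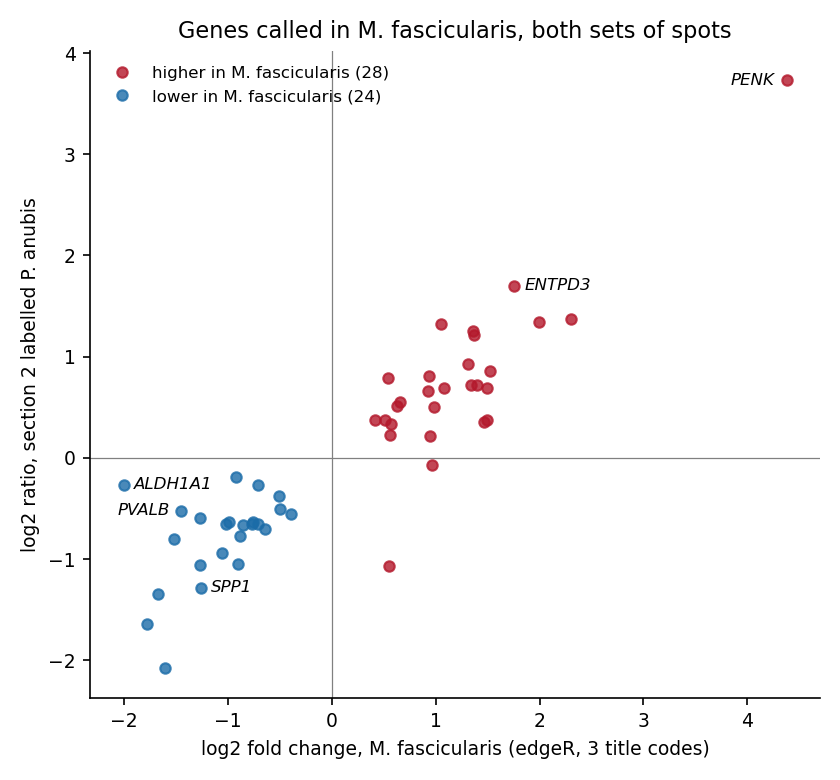
Log2 fold change in M. fascicularis (horizontal, edgeR, 3 title codes) against the log2 ratio of pooled levels in section 2 labelled P. anubis (vertical, 1 section, no test) for the genes called in M. fascicularis that had UMIs in both classes. Of 28 genes called higher 26 lie above 0, and all 24 called lower lie below 0.

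Over the 15 M. fascicularis sections with a matrix, tissue held from 1136433 to 7073134 UMIs (median 4141584) on 596 to 2587 spots. A simulation kept the layout and library totals but gave all genes the same dispersion and all title codes the same free-spot profile. Changed genes were drawn from those already tested. There edgeR recovered 61% of genes changed 2-fold and 86% of genes changed 4-fold in the matched comparison, with 9 false calls among 156. For the comparison with all free spots it recovered 38% and 69%, with 2 false calls among 109. Real title codes differ in their profiles, so these rates are not the power of the real comparisons.

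Whether the difference between positive and matched spots itself varied was tested with an interaction term in edgeR. Between batches 14 genes passed (0.221% of 6343), among them the growth factor receptor KIT, and between sexes 1 gene passed (0.0158%), PVALB. In positive spots PVALB measured 460 CPM in male batch 1 and 105 and 138 CPM in the female title codes, while matched spots measured 701, 627 and 598 CPM. Batch 2 and the male side are 1 title code each, so batch or sex and title code cannot be told apart.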

How the data were processed

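Visium libraries of primate dorsal root ganglia were counted by the authors with Space Ranger (2.0.0 or 2.1.0, per the file headers); the submitters' processing notes name the build Mmul_10, while the M. fascicularis matrices carry ENSMFAG identifiers. The deposited values are raw UMI counts per gene and spot. The deposited tables of spatial autocorrelation give Moran's I, a score computed by the authors, with p-values from the same tables.

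Spots were classed by TRPM8 counts as stated above, and counts were summed per title code and class. The positive and free spots of a title code come from the same sections, hence the title code as a block. The design foresaw 4 title codes, of which 3 held positive spots (2 residual degrees of freedom, 1 in the interaction fits). The tests were edgeR 4.0.16 (TMM, filterByExpr, quasi-likelihood, Benjamini-Hochberg over all genes tested) in R 4.3.3, with DESeq2 1.42.0 as an alternative; the edgeR script was tested on simulated data. Spots were matched 5 to 1 within sections on log2 UMIs and log2 pan-neuronal share, greedily and without reuse. Thinning drew 2000 UMIs per spot. CPM values are per 1000000 UMIs of the summed spots, counted without regard to gene length. Overlap of a gene with an antisense or near-identical partner was not examined. No spots were removed as doublets.

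Named genes are members of 20 lists and, in each comparison and direction, the 10 genes with a symbol, of lowest p among those called and moving one way in every title code. The members and lists were chosen with earlier results of these data known. Genome coordinates and sequences are not given, since no table of this build was used. Some genes of the lists are not reported here.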

Additional observations from a re-analysis of the deposited data

Results flagged for a closer look

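The difference between positive and matched spots was itself compared between batches and between sexes with edgeR's interaction term. Batch 2 is 1 title code here (female batch 2) and the male side is 1 title code (male batch 1), so a batch or sex difference and a difference of that title code cannot be told apart. Each value below is a difference of log2 fold changes, batch 2 minus batch 1 or male minus female.

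Between batches 14 of 6343 genes passed (0.221%). PCP4, a calmodulin regulator, had -2.27: it measured 479 and 572 CPM in positive spots of female batch 1 and male batch 1 against 319 and 408 CPM matched, but 287 against 961 CPM in female batch 2. FABP3, a fatty acid carrier, had -1.29, and the glycolytic enzyme ALDOC had -0.93. KIT had -4.78, with 93.5 and 75.2 CPM against 15.3 and 13.6 CPM in batch 1. The positive spots of female batch 2 held 1 KIT UMI (5.52 CPM) against 27.3 CPM matched. In the spots of female batch 2 with exactly 1 TRPM8 UMI, by contrast, KIT was higher than in their matched spots, as given above. ALDH1A1 had -8.95, a fitted value that depends on its 0 UMIs in female batch 2, and TM6SF1 had -3.91. In the other direction ANXA1, a calcium-dependent phospholipid binder, had 1.10, ATL3 had 1.22, the secreted guidance protein SEMA3C had 4.47 on 14 UMIs in positive spots, and the retinol carrier RBP4 had 1.19. The genes with an identifier only were ENSMFAG00000051097 (1.08), ENSMFAG00000038427 (1.71), ENSMFAG00000049080 (0.72) and ENSMFAG00000043424 (0.94).

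Between sexes 1 gene passed (0.0158%), PVALB with 1.73 (edgeR adjusted p = 0.0498). Its positive spots measured 460 CPM in male batch 1 against 105 and 138 CPM in the female title codes, with 598 to 701 CPM in matched spots.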

How the results depend on the processing

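The matched comparison called 63 genes. Under other settings it called 0 without the replicate block, 21 with DESeq2, 104 with every feature of at least 1 UMI, 6 with positive spots of at least 3 TRPM8 UMIs, 171 with spots of exactly 1, 2 with spots thinned to 2000 UMIs, 113 with 10 matched spots and 120 with matching on section and depth only. It called 111 in sections 3 and 4 only, an alternative chosen after seeing the data. The comparison with all free spots called 121 genes, 0 without the replicate block (524 at an unadjusted p under 0.05), 29 with DESeq2, 50 with at least 3 TRPM8 UMIs, 184 with exactly 1, 21 with thinned spots and 195 with sections as samples and the section as replicate block. Leaving out 1 title code or section gave 3 to 82 calls in the matched comparison and 47 to 143 against all free spots. The lowest came without male batch 1 (3) and without female batch 1 (47); without section 4 of male batch 1 there were 33 and 59, and without male batch 1 there were 61 against all free spots. The calls differing by batch went from 14 to 9 with every feature of at least 1 UMI; those differing by sex went from 1 to 0 without TMM and to 4 with every feature. For these changes the cause was not tested, except that thinning and the 3-UMI rule leave fewer UMIs and genes to test.

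Values that reversed were TRPV1 with at least 3 TRPM8 UMIs (-0.18 against all free spots, -0.14 matched), and in the matched comparison CTNNBL1 (-0.086) and SFRP4 (-0.68) with exactly 1 TRPM8 UMI and NEFL (0.025) with matching on neurofilaments. NEFL is itself on the list used for that matching, so its reversal cannot be read as a result. The pan-neuronal share difference was -0.0146 points at a minimum of 4000 UMIs. The share of positive spots, 0.665%, was 0.478% at a minimum of 1000 UMIs, 1.03% at 4000, 0.0896% thinned, 3.75% with at least 1 TRPM8 UMI and 0.166% with at least 3. The depth difference kept its direction, 0.84 to 0.94 on the log2 scale without 1 title code. With 591574 UMIs in the 52 positive spots, scarce genes could not be tested: 6343 genes entered the matched test.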
